A study of Mus musculus with 2 samples.

Results

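Nuclear hormone receptors are transcription factors that bind DNA through a pair of zinc fingers, and many of them are switched by a small lipid-soluble ligand. The genes described here are 30 members of this family, chosen by symbol from the array annotation, among 18193 genes named by at least 1 probe set. All 30 were on the array, read by 91 probe sets. They were measured in small-intestinal crypts of mice with Lpcat3 deleted from the epithelium and of their controls. Lpcat3 encodes a lysophospholipid acyltransferase that places polyunsaturated fatty acids into membrane phospholipids.

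The knockout group carried floxed Lpcat3 alleles and Villin-CreERT2 (Lpcat3 F/F, Villin-CreERT2), a Cre recombinase driven by the villin promoter in intestinal epithelial cells and active only in the presence of tamoxifen. The control group carried the floxed alleles alone (Lpcat3 F/F). Knockout and control mice were 8 to 10 weeks of age, were given 1 mg of tamoxifen daily by intraperitoneal injection over 5 days, and crypts were isolated 2 weeks after tamoxifen. A pool of RNA from 5 mice represents a genotype, and there is 1 Affymetrix array for it. With 1 array per genotype no test of genotype is possible and no p-value is given. Genotype, Cre transgene, pool and array cannot be told apart, and cells other than the epithelium keep Lpcat3 in the knockout mice.

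In the intestine, receptors of this family sense xenobiotics, bile acids, vitamin D, retinoids, thyroid hormone and steroids, and others, such as HNF4, hold the gene programme of the epithelium without a known hormone. Many of the lipid-sensing members bind DNA as a pair with a retinoid X receptor. Steroid receptors bind mostly as pairs of themselves.

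The values are MAS5 signals, linear brightness units per probe set. A signal below 92.9, the median of all signals on both arrays, was treated as background and raised to that floor. Log2 ratios are knockout over control, from the probe set with the highest mean log2 signal of each gene. A gene above the floor on 1 array has a bound, written as "at least". The probe error SD was 0.28 on the log2 scale (1.21-fold), for the log2 ratio of a single probe set. It was estimated from the gap between the brightest and next brightest probe sets of 4582 genes, and the gap itself varied more. This SD covers probe error only and leaves out the spread between mice and pools. Signals of different genes were read by different probes and are not compared with each other. Median signal was 90.5 on the knockout array and 95.4 on the control array. Lpcat3 itself had a signal of 928 on the knockout array, against 4691 on the control array, a log2 ratio of -2.34. The epithelial markers were bright on both arrays, with Vil1 at 17444 and Epcam at 25300.3 in knockout, against 14737 and 25413 in control.

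Of the 30 receptor genes, 25 exceeded the floor, 21 of them in both pools, 1 in the knockout pool alone and 3 in the control pool alone. Lower by 1.5-fold or more in knockout crypts were Nr2c1, Nr3c1 and Esrrg (3 of 25, against 8.74% of the 11496 genes above the floor). The only receptor at least 1.5-fold higher was Esr1 (1 of 25, against 4.76% of all genes), and its value is a bound from a dim probe set. None of the 21 receptors above the floor on both arrays reached 2-fold in either direction. The 4 bounds were also below 2-fold, but a bound is a minimum size and cannot show that a gene stayed under 2-fold. With a floor at the 30th percentile Esr1 was at 2.28 and Rora at -1.03. With bounds counted at their minimum, 1.41% of all genes reached 2-fold upward and 2.32% downward. In either direction together, 4 of 25 passed 1.5-fold, against 13.5% of all genes, so the share of receptors past this fold lay near that of the array as a whole. Of any size, 16 receptors were lower and 9 higher in knockout, that is 64.0% lower, against 55.1% of all genes. Their median log2 ratio was -0.21, also without the 4 bounds (-0.21), whereas that of all genes above the floor was -0.042. After scaling both arrays to their median signal, 2 receptors were higher and 2 lower by 1.5-fold or more, and all genes divided into 6.41% higher and 6.92% lower. With that scaling the medians were -0.14 for the receptors and 0.030 for all genes.

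**Figure D1:**
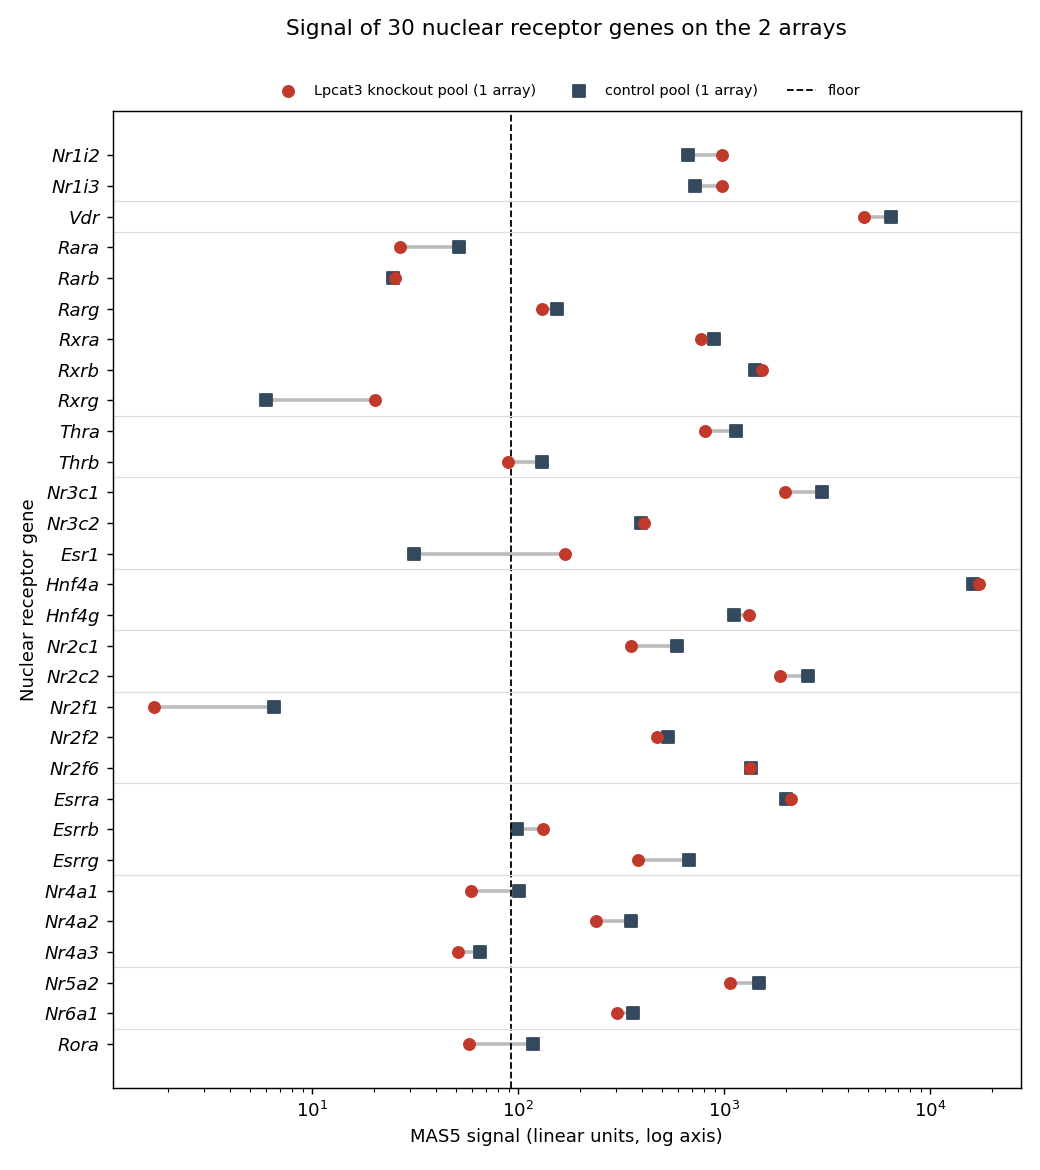
MAS5 signal (log axis) of the brightest probe set of each of the 30 nuclear receptor genes, with the knockout array as circles and the control array as squares, grouped by receptor type from top to bottom. The dashed line is the floor of 92.9. The 5 genes with both points left of it were not measured, and the distance between their points has no meaning.

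**Figure D2:**
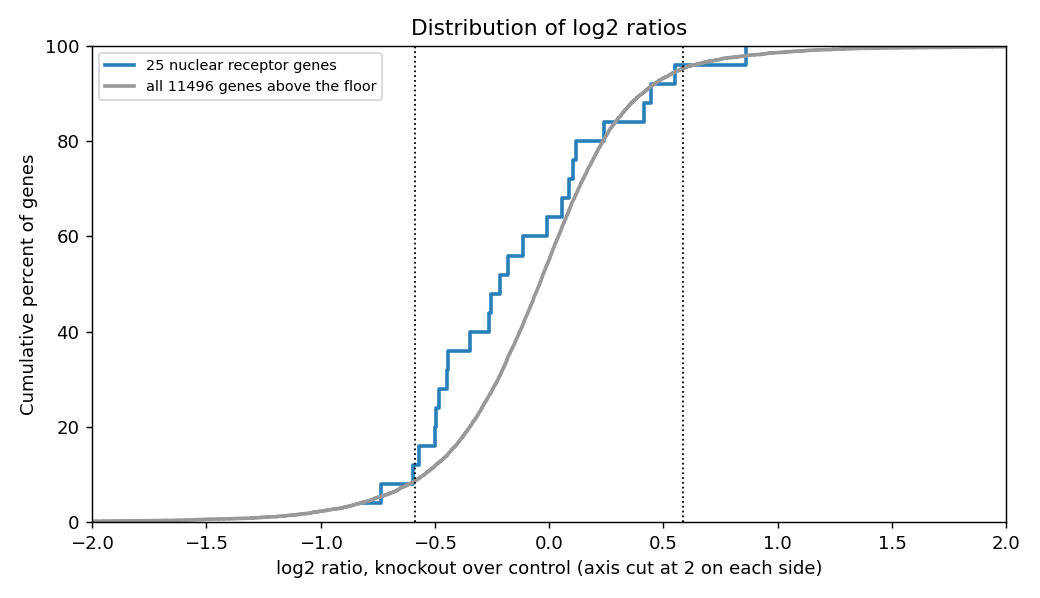
Cumulative percent of genes (vertical axis) against log2 ratio, knockout over control (horizontal axis), for the 25 nuclear receptor genes above the floor and for all 11496 genes above it. The receptor curve lies above that of all genes between about the lower 1.5-fold line and 0, where the receptor median is -0.21 and the median of all genes -0.042, and both curves meet near the 1.5-fold lines.

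The xenobiotic receptors were both on the higher side. Nr1i2 encodes the pregnane X receptor (PXR), which responds to drugs, steroids and bile acids. Its signal was 976 in the knockout pool, against 667 in the control pool, a log2 ratio of 0.55 (1.46-fold), and its second probe set gave only 0.13 (503 against 460.2). Nr1i3 encodes the constitutive androstane receptor (CAR), a relative of PXR that shares many of its target genes. It had a signal of 979.7 in knockout and 719.5 in control, a log2 ratio of 0.45, from its single probe set. Both differences are under 2 SDs of the probe error. Nr1i2 passed 1.5-fold under each of the 3 other scalings of the arrays (0.60 to 0.62).

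The genes known as targets of PXR and CAR went both ways. Of 14 such genes above the floor, 5 were lower by 1.5-fold or more (35.7%, against 8.74% of all genes). Another 2 were higher by as much (14.3%, against 4.76%), and the median log2 ratio was -0.13. The lower ones were 4 cytochromes P450 and a carboxylesterase. Cyp2c29 had a signal of 280.1 in knockout, against 2744 in control (log2 ratio -3.29). Cyp2b10, the standard reporter of CAR activity in mouse liver, had 1257 in knockout and 7909 in control (-2.65). Cyp2c55 was at -1.67, Cyp3a11 at -1.04 (14914 in knockout, 30774 in control) and Ces2a, which hydrolyses ester drugs, at -0.62. The higher ones were efflux transporters: Abcb1a, which encodes a P-glycoprotein, was at 1.04 (4803 in knockout, 2335 in control) and Abcc2 at 0.66. Cytochrome genes of these families are close paralogs, and a probe set can also bind a neighbour's transcript. The signals of both receptors were thus higher in the pool in which the 4 cytochrome genes were lower. The ligands and activity of the receptors were not measured.

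Promoter windows are shown for PXR and CAR, the receptors that were higher together, and for Vdr and Nr2c1, which were lower. Each is the 250 bases before the RefSeq start site in GRCm38.p6, written 5′ to 3′ on the strand of the gene. PXR is at chr16:38294825-38295074 on the minus strand, CAR at chr1:171213720-171213969 on the plus strand, Vdr at chr15:97908297-97908546 on the minus strand and Nr2c1 at chr10:94147681-94147930 on the plus strand. Capitals mark AGGTCA, the hexamer that many nuclear receptors recognise, or GGGCGG, the GC box bound by Sp1-type factors, on either strand; the motifs do not overlap.
Nr1i2: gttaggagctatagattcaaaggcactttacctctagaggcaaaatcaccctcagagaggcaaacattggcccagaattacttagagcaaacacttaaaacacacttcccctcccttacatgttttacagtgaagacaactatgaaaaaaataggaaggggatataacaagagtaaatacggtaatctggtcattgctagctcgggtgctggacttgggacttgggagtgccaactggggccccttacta
Nr1i3: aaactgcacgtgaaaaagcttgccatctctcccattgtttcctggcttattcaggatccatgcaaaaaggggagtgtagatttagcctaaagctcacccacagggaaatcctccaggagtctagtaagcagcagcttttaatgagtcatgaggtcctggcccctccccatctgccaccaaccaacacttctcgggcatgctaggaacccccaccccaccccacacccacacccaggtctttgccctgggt
Vdr: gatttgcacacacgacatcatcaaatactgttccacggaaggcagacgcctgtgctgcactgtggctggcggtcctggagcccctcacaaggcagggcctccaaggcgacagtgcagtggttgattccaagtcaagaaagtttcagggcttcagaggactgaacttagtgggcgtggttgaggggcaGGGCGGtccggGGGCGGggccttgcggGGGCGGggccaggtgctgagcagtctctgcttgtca
Nr2c1: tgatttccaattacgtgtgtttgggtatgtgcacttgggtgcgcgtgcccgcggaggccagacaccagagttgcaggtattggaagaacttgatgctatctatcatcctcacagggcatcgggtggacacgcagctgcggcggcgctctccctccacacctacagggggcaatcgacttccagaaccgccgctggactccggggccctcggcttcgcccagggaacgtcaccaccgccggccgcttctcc
None of these 4 windows holds AGGTCA, and only that of Vdr holds GGGCGG, in 3 copies. Among all 32851 windows of this length, 14.0% hold AGGTCA and 32.7% hold GGGCGG. Windows were listed for 27 of the 30 receptor genes, 44 windows in all since some genes have several start sites. Of these 44 windows, 6 (13.6%) hold AGGTCA and 20 (45.5%) hold GGGCGG. The GC content was 44.0% in the PXR window and 53.2% in that of CAR, against 61.2% for Vdr and 62.0% for Nr2c1. The median was 52.4% over all windows and 59.6% over the 44 receptor windows. A motif match describes the letters only.

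Vdr, the vitamin D receptor, which drives calcium uptake in the intestine, was lower by both of its probe sets. The brightest had 4750.3 in knockout and 6482 in control, a log2 ratio of -0.45 (1.36-fold), and the other had 2799 in knockout and 4174 in control (-0.58). Its signals lay far above the floor on both arrays. Of 7 vitamin D receptor targets above the floor, 3 were higher by 1.5-fold or more (42.9%, against 4.76% of all genes). Only 1 was lower by as much (14.3%, against 8.74%), and the median was 0.24. The manganese transporter gene Slc30a10 was at 1.01 (797 in knockout, 396 in control), Abcc2 at 0.66 and the cell cycle inhibitor gene Cdkn1a at 0.64, while Cyp3a11 was the lower one. Abcc2 and Cyp3a11 are also on the list of PXR and CAR targets, so the same values were counted there. The calcium-binding protein gene S100g, a classic target, was at 0.086 (3889 in knockout, 3664 in control). The calcium channel gene Trpv6 was below the floor in knockout and at 107 in control, at least 1.15-fold lower. Cyp24a1, which inactivates vitamin D, was below the floor on both arrays.

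Retinoid receptors were present in part. Among the retinoid X receptors, the shared partners of PXR, CAR, Vdr and others, Rxrb was at 0.12 (1528 in knockout, 1409 in control) and Rxra at -0.21 (768 in knockout, 891 in control). A second probe set of Rxra gave 0.56 (318 in knockout, 215 in control), so the direction of Rxra depends on the probe set. Rxrg was below the floor on both arrays. Of the receptors for retinoic acid, Rarg was near the floor with 130.1 in knockout and 155 in control (-0.25), and Rara and Rarb were below it on both. Among the 4 measured targets of these receptors the median was -0.48, and Lrat, which stores retinol as an ester, was at -1.15 (385 in knockout, 855 in control). The other targets above the floor were Dhrs3 (-0.53), Tgm2 (-0.43) and Cyp26b1 (at least 1.20-fold higher).

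Thra and Thrb encode the receptors for thyroid hormone, which paces the maturation of the intestinal epithelium. All 3 probe sets of Thra were lower in the knockout pool: the brightest had 804 in knockout and 1136 in control (-0.50), and the others gave -0.12 and -0.47. Thrb was below the floor in knockout (89.7) and just above it in control (131), at least 1.41-fold lower. Of 5 measured targets of these receptors, 2 were lower by 1.5-fold or more (40.0%, against 8.74% of all genes). Higher by as much was 1 of 5 (20.0%, against 4.76%). Dio1, the deiodinase that turns thyroxine into active hormone, had 334 in knockout and 1246 in control (-1.90). The lactase gene Lct was at -1.36 and Me1, malic enzyme, at 0.93. Lct is also 1 of 9 measured villus enterocyte markers, of which 6 were higher and 3 lower in knockout, with a median of 0.29.

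The glucocorticoid receptor gene Nr3c1, which mediates the response to corticosterone, had 1974 in knockout and 2984 in control, a log2 ratio of -0.60 (1.51-fold lower). Its next probe set gave -0.70 (1191 in knockout, 1939 in control). The other 3 probe sets above the floor gave -0.057, -0.095 and 0.17, so a difference past 1.5-fold was read by 2 of 5. It stayed past 1.5-fold under quantile normalisation (-0.62) and lowess (-0.61). It did not under median scaling (-0.52), with a pseudocount (-0.57) or as the mean of all probe sets (-0.26). Other floors, or leaving out probe sets marked as shared between transcripts, could not change its ratio. Nr3c2, the mineralocorticoid receptor gene, was at 0.056 (409 in knockout, 393 in control), within the probe error.

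Of 9 measured targets of either corticosteroid receptor, 2 were at least 1.5-fold lower (22.2%, against 8.74% of all genes). None of the 9 was 1.5-fold higher, against 4.76% of all genes. Sgk1, a kinase induced by corticosteroids, had 564 in knockout and 2215 in control (-1.97), and the sodium channel subunit gene Scnn1a was at -1.10. Among the rest of this list, Fkbp5 (0.033), Per1 (0.054), Ddit4 (-0.15) and Tsc22d3 (-0.19) lay within the probe error. Nfkbia (-0.36), Klf9 (-0.30) and Dusp1 (0.29) were past the probe error SD but within 1.5-fold. The activity of the corticosteroid receptors was not measured. The 6 measured chaperones of steroid receptors ranged only from -0.24 (Fkbp4) to 0.13 (Hspa8), with a median of -0.025. Hsd11b1, which regenerates active glucocorticoid, was at -0.52 from signals near the floor (95.0 in knockout, 136 in control), and Hsd11b2, which inactivates it, at -0.15.

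Nr3c1 is also expressed in lymphocytes, and markers of T and natural killer cells were lower in the same pool. All 12 markers above the floor, of 14 on the list, were at least 2-fold lower in knockout (against 2.32% of all genes), with a median of -2.10. Their summed signal was 10379 in knockout, against 47258 in control, and Cd2 was below the floor on both arrays. Fewer cells of a type and less RNA per cell cannot be told apart in such pools. The part of these cells in the values of Nr3c1, Rora and the Nr4a genes was not tested. Markers of B and plasma cells were higher, 6 of 8 by at least 1.5-fold, with a summed signal of 5439 in knockout and 1660.2 in control. Of 7 myeloid markers above the floor 5 were higher and 2 lower in knockout. Their summed signal was 4181 in knockout and 4176 in control, but Lyz2 alone gave 2477 and 3225 of it. The sum therefore mostly follows 1 gene and does not show that myeloid signal was equal. The myeloid markers past 1.5-fold were Csf1r at 2.53 (700.0 in knockout, 121 in control) and C1qa, at least 2.64-fold higher. Of 13 stromal, muscle and vessel markers 8 were below the floor on both arrays. Among the other 5, Acta2 was 1.69-fold higher (203 in knockout, 120.2 in control) and Des at least 1.62-fold lower. None of the 4 neural and glial markers on the array was above the floor.

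Esr1, the receptor for estrogen, was above the floor in knockout (169) and below it in control (31.3), at least 1.82-fold higher. Its 2 other probe sets were below the floor on both arrays, so this value rests on 1 dim probe set.

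HNF4 receptors are core regulators of the intestinal epithelium, and their signals were close on both arrays. Hnf4a had 17289 in knockout and 16068 in control, a log2 ratio of 0.11. Its next 2 probe sets gave -0.052 and -0.049, and its dimmest was at least 1.63-fold higher with a knockout signal of 151. The direction of Hnf4a therefore flips when probe sets marked as shared between transcripts are left out (-0.052). Hnf4g had 1323 in knockout and 1120.2 in control (0.24), with 0.19 and -0.31 by its other probe sets. Their 12 measured target genes had a median of 0.045, with 6 higher and 6 lower, and 10 of them lay within 1.5-fold. Those 10 ran from -0.27 (Ttr) to 0.56 (Apoc2), with Fabp1 at 0.38. Mttp, which loads lipid onto lipoproteins, was at 0.66 (22310.0 in knockout, 14084 in control) and the apolipoprotein gene Apoc3 at -0.94 (6450.1 in knockout, 12399 in control), while Apoa1 (0.11), Apoa4 (-0.018) and Apob (-0.066) were within the probe error.

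Nr2c1 and Nr2c2 encode TR2 and TR4, related orphan receptors that can repress transcription from the same DNA repeats as the retinoid and vitamin D receptors. Nr2c1 had 354 in knockout and 590.1 in control, a log2 ratio of -0.74 (1.67-fold lower). Its 4 other probe sets above the floor gave 0.019, -0.21, -0.035 and a bound of at least 1.20-fold lower, so no other probe set of Nr2c1 reached 1.5-fold. As the mean of all 5 the ratio was -0.25. Nr2c2 had 1867 in knockout and 2538 in control (-0.44), and its other probe sets above the floor gave -0.35, -0.18 and 0.38.

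The COUP-TF genes differed little. Nr2f6 was at -0.011 (1332 in knockout, 1342 in control) and -0.069 by its second probe set. Nr2f2, known from mesenchymal and vascular cells, was at -0.18 (470.5 in knockout, 534 in control), with 0.28 by its second probe set. The sign of both genes changed under other settings. Nr2f1 was below the floor on both arrays.

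Among the estrogen-related receptors, which bind no estrogen and govern genes of mitochondrial respiration, Esrrg was lower. It had 383 in knockout and 673 in control, a log2 ratio of -0.81 (1.76-fold lower), and its second probe set gave -0.55 (404 in knockout, 593 in control). Of the 8 alternative settings, other floors and leaving out probe sets shared between transcripts could not change this ratio. Esrrg stayed past 1.5-fold under all the rest (-0.75 to -0.68). Esrra, by contrast, was at 0.088 (2116 in knockout, 1990.2 in control) and 0.11 by its second probe set, and Esrrb, near the floor, was at 0.42 by one probe set and at least 1.23-fold lower by another. The median of 9 targets of these receptors was 0.16 and 8 lay within 1.5-fold. Cycs, cytochrome c, was at 0.30, and Pdk4, the kinase that shuts pyruvate out of oxidation, at -0.93 (162 in knockout, 308 in control).

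The Nr4a genes are immediate early genes, switched on within minutes of a stimulus. Nr4a2 was lower by all 4 of its probe sets above the floor, with 238 in knockout and 354 in control by the brightest (-0.57) and -0.41, -0.25 and at least 1.15-fold lower by the others. Nr4a1 was below the floor in knockout (59.1) and just above it in control (100.5), at least 1.08-fold lower, and Nr4a3 was below it on both arrays.

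Nr5a2 encodes LRH-1, a phospholipid-binding receptor of crypt cells known to support their renewal and local steroid synthesis. It had 1062 in knockout and 1482 in control (-0.48), with -0.055 and -0.087 by its other probe sets above the floor. In the same pools the stem cell marker Lgr5 had 171 in knockout and 814 in control (-2.25), and Olfm4 was at -0.59. The 6 measured targets of Nr5a2 all lay within 1.5-fold (median 0.14), from Tph1 at -0.26 to Nr0b2 at 0.31. Nr6a1, the germ cell nuclear factor, was lower by both probe sets above the floor: the brightest had 300.4 in knockout and 361 in control (-0.26), and the other gave -0.51.

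Rora, a receptor of the circadian clock and of innate lymphoid cells, was below the floor in knockout (57.9) and above it in control (118), at least 1.27-fold lower. Of its 9 probe sets only 2 were above the floor, both on the control array alone. Of 5 clock genes under ROR control, 1 was at least 1.5-fold lower (20.0%, against 8.74% of all genes). It was Npas2, at -0.99 (187 in knockout, 371 in control), and Arntl, which encodes BMAL1, was at -0.55. Nr1d1 was at 0.020.

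Agreement between probe sets sets how far these values can be read. Of the 18 receptor genes with more than 1 probe set above the floor, 10 had all of them on the same side of 0 (55.6%, against 52.3% of 5171 such genes on the array). Those 10 were Vdr, Nr1i2, Thra, Esrra, Esrrg, Nr2f6, Nr4a2, Nr5a2, Nr6a1 and Rora. Of the other probe sets, 24 of 33 had the sign of the brightest one (72.7%, against 63.2% over all genes).

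**Figure D3:**
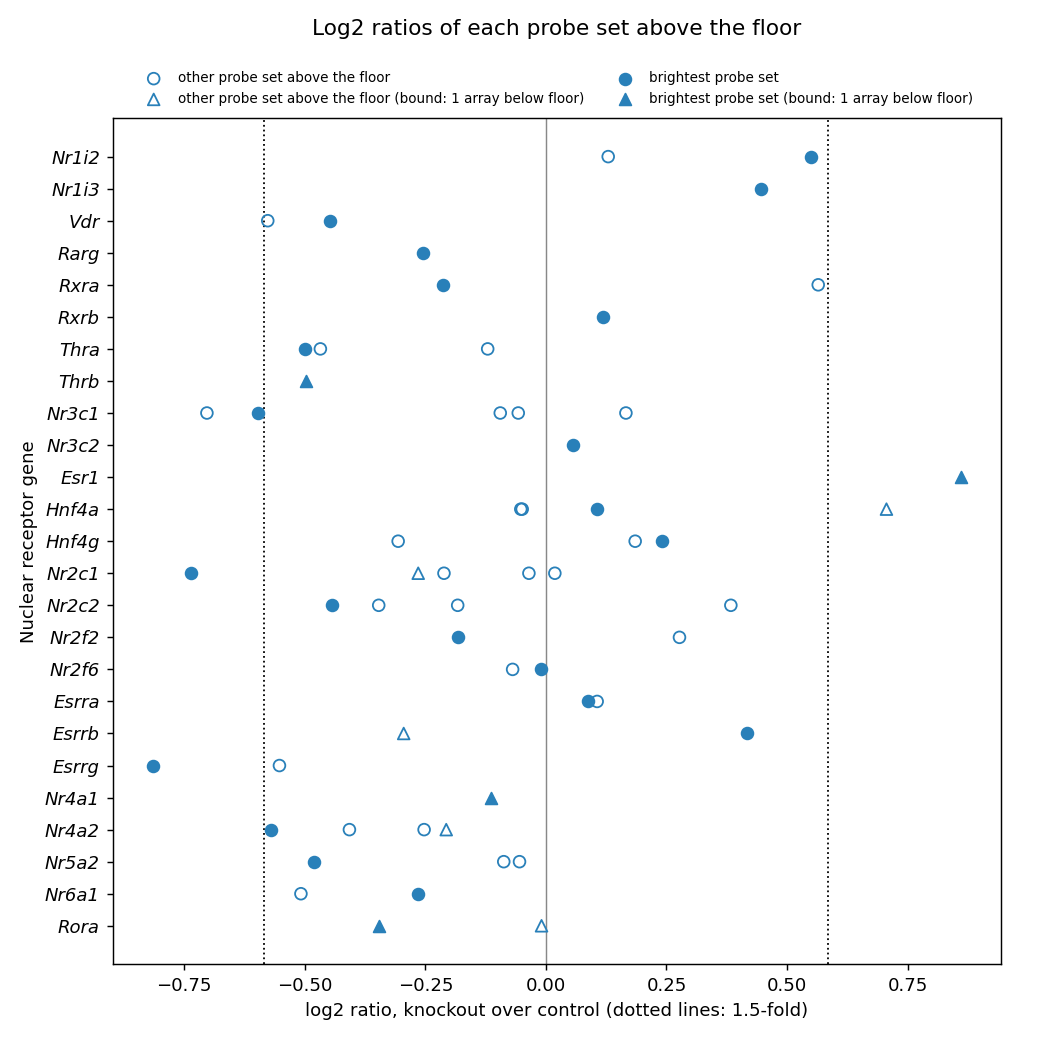
Log2 ratio, knockout over control (horizontal axis), of every probe set above the floor for the 25 measured nuclear receptor genes. Filled symbols are the brightest probe set of a gene, open symbols the others, triangles are bounds and dotted lines mark 1.5-fold. Points of Vdr, Thra, Esrrg and Nr4a2 all lie left of 0, whereas those of Nr3c1, Nr2c1, Nr2c2 and Rxra lie on both sides.

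Most coregulators that receptors recruit were on the lower side but within 1.5-fold. Coactivators had a median of -0.17 over 11 genes, against -0.042 for all genes above the floor. Of the 11, 9 were lower (81.8%, against 55.1% of all genes), and all 11 lay within 1.5-fold. Ncoa2 was lowest at -0.51 (1308 in knockout, 1867 in control), and Ppargc1b, a partner of the estrogen-related receptors, was highest at 0.37. Of 6 measured corepressors all were lower, with a median of -0.19, although Hdac3 differed by only -0.00054. Of these 6, 1 was at least 1.5-fold lower (16.7%, against 8.74% of all genes). It was Nrip1, at -0.62 (1907 in knockout, 2932 in control), and Tbl1x was at -0.46.

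**Figure D4:**
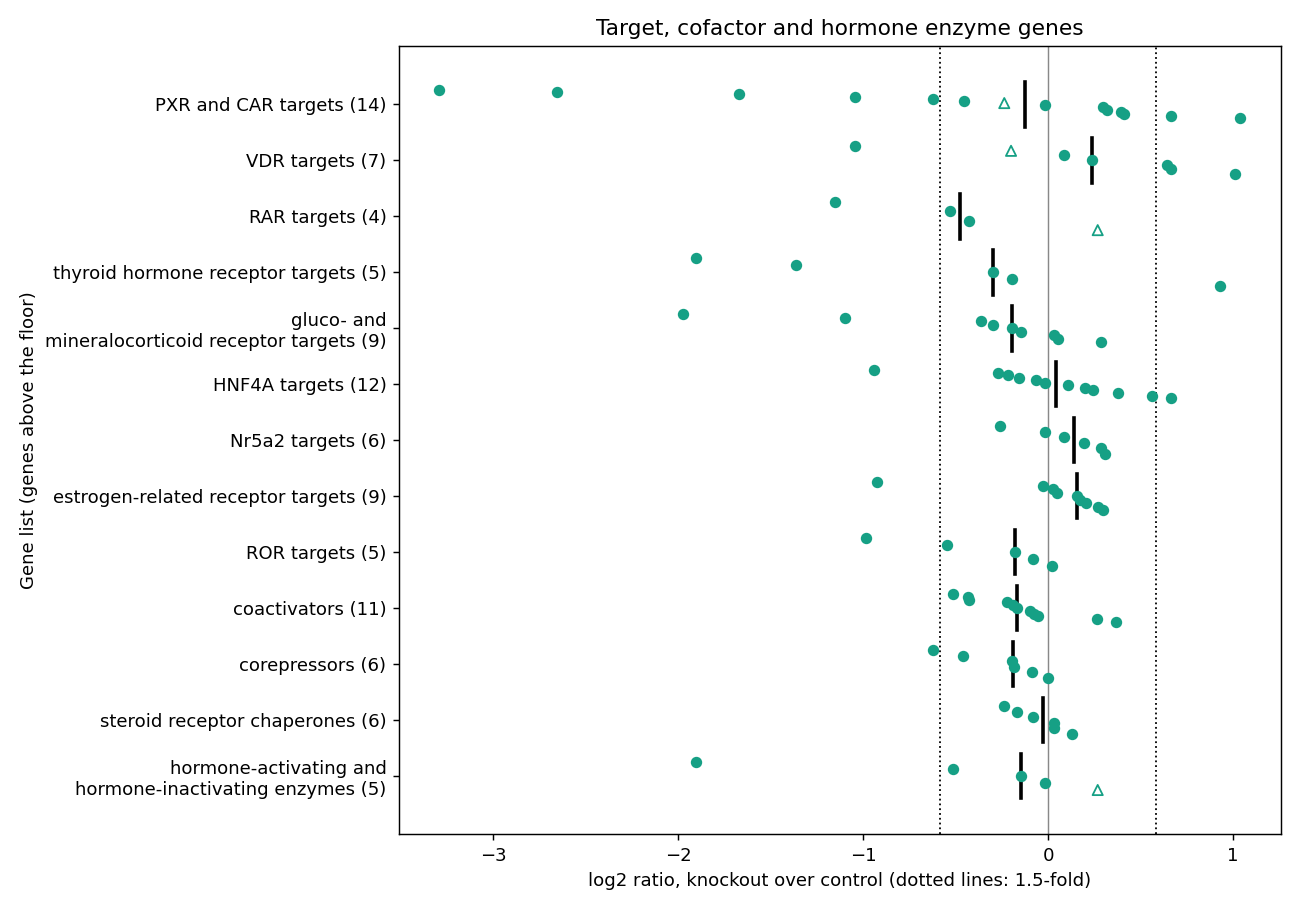
Log2 ratio, knockout over control (horizontal axis), of genes above the floor in 13 lists of receptor targets, cofactors and hormone enzymes. Each point is 1 gene, open triangles are bounds, black bars are list medians and dotted lines mark 1.5-fold. A gene on more than 1 list is drawn in each of them. The points of PXR and CAR targets spread from -3.29 to 1.04, while those of coactivators and steroid receptor chaperones stay inside the dotted lines.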

How the data were processed

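Crypt RNA of 2 pools was read on 1 array each, and the labels put 1 array in each genotype. The authors deposited MAS5 signal intensities on a linear scale, per the submitters' processing notes, which name no version or option. With 2% of the values removed at each end the mean was 500.003 on both arrays, so no further scaling was applied. Each genotype is 1 array, and their number limits the precision.

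Of 45101 probe sets, 64 controls were set aside. Of the rest, 34945 had 1 gene symbol, 932 several and 9160 none here. Entrez identifiers gave current symbols from RefSeq (GRCm38.p6) for 34741 probe sets, and the promoter windows are from RefSeq too. The floor was the 50th percentile of all remaining signals. Genes were counted at 1.5-fold and 2-fold. The ratio steps were tested on simulated data (python 3.11.15, pandas 2.3.3, statsmodels 0.14.6).

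The members and gene lists were chosen with earlier results of these data known, the lists from textbook knowledge. All 30 members could be named, as could Lpcat3 and, in each list, genes at least 1.5-fold different, the 3 highest and the 3 lowest. Outside this rule Nr0b1, Nr1h4, Nr2e1, Nr5a1, Esr2, Pgr, Rorb, Cyp24a1, Tsc22d3, Ddit4, Apoa1, Apob, Cd2 and Epcam were chosen after their values were seen. A list gene without a probe set of its own symbol was not analysed here. Floors, scalings and probe set rules were varied as alternatives.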

Additional observations from a re-analysis of the deposited data

How the results depend on the processing

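No paired analysis was possible because there is 1 array of each genotype, which also leaves no array to drop. The number of receptor genes at least 1.5-fold lower was 5 when the floor was set at the 30th percentile and 1 with the mean over all probe sets of a gene, against 3 as reported. The share of all genes lower by as much was 12.6% and 7.39% under these settings, against 8.74% as reported. With a pseudocount 2 receptor genes (4.35% of all genes) were lower by as much. The number at least 1.5-fold higher was 0 for a floor at the 70th percentile, which takes Esr1 out, and 2 under median scaling, quantile normalisation or lowess, where Nr1i2 joins Esr1; all genes were at 3.71% with that floor and at 5.65% to 6.41% with those scalings, against 4.76% as reported. The median stayed below 0 under all 8 settings (-0.26 to -0.11), and 19 to 30 receptor genes entered, the latter with a pseudocount that uses every gene. With the lower floor Rora was at -1.03, Nr4a1 at -0.77 and Esr1 at 2.28. Of 193 recomputed ratios of single receptor genes, 184 moved by less than the probe error SD, 9 by more, and no called ratio changed sign. Many of the 184 could not move. For most of these genes, another floor or the loss of shared probe sets returns the same ratio by construction. Of the 9, 5 came from the mean over all probe sets of a gene.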

Other observations

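Of 19 further nuclear receptor genes, 14 were on the array and 8 above the floor. Their median log2 ratio was 0.015, and 1 of 8 was at least 1.5-fold different (12.5%, against 13.5% of all genes). That gene was Pparg, a fatty acid sensor, with a signal of 524 in knockout and 265 in control (0.98). Ppard, which also senses fatty acids, was on the other side at -0.51 (593 in knockout, 841 in control), and Ppara was at 0.096. The bile acid receptor gene Nr1h4 was at 0.011 (1032 in knockout, 1025 in control), Nr0b2, a repressor it induces, at 0.31, and the oxysterol receptor gene Nr1h3 at -0.17. The clock repressor genes Nr1d2 and Nr1d1 were at -0.10 and 0.020. Below the floor on both arrays were Nr0b1, Nr2e1, Nr5a1, Esr2, Pgr and Rorb. Over all 33 receptor genes of the family above the floor the median was -0.11, with 2 higher (6.06%, against 4.76% of all genes) and 3 lower (9.09%, against 8.74%) by 1.5-fold or more.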
